A study of Mus musculus with 6 samples.

Results

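The miR-34 and miR-449 family was followed through small RNA libraries of mouse fat. Its members were the rows of the deposited table named miR-34a-5p, miR-34b-5p, miR-34b-3p, miR-34c-5p, miR-34c-3p and miR-449a-5p. All 6 were found among the 1251 miRNA arms of the table (an arm is the mature miRNA cut from the 5′ or the 3′ side of a hairpin). The 3 brown libraries (BAT_EPA, numbered 3, 4 and 5) came from interscapular brown adipose tissue, and the 3 subcutaneous libraries (SAT_EPA, numbered 1, 3 and 8) from inguinal adipose tissue. All mice were C57BL/6J, an inbred laboratory strain, and were 5 to 6 weeks old when feeding began. Their diet, given for 11 weeks, drew 45% of energy from fat, 20% of energy from protein and 35% of energy from carbohydrate and was supplemented with 6.75% eicosapentaenoic acid (EPA), an omega-3 fatty acid. The mice were fasted for 4 hours before the tissues were taken. Diet, EPA and fast were shared by both groups, so the comparison is between tissues. The labels do not say whether the libraries of a tissue came from separate mice, or those of both tissues from the same mice, so p-values measure only the spread between these samples.

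MiR-34a, miR-34b and miR-34c are transcribed under the control of the tumour suppressor p53 and repress genes of the cell cycle and of cell survival. In mouse fat, miR-34a is known to be more abundant in obesity and to repress Sirt1, a deacetylase, and Fgfr1, a receptor for fibroblast growth factors, by which it restrains the browning of white fat. MiR-34b, miR-34c and the miR-449 cluster are best known from testis and from epithelia that carry motile cilia. A miRNA finds its targets chiefly through its seed, bases 2 to 8 from the 5′ end.

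Among members with a mature sequence below, the seed separates 5p from 3p arms. It is shown because members with the same seed share most predicted targets. The mature sequences below are from RefSeq on GRCm38.p6, 5′ to 3′, with the seed in capitals. Of the 6 members, 5 had a mature sequence in that table; miR-34c-5p had none.
miR-34a-5p: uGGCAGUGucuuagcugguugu
miR-34b-5p: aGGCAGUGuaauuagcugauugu
miR-449a-5p: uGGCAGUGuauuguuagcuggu
miR-34b-3p: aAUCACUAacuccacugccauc
miR-34c-3p: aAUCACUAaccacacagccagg

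MiR-34a-5p, miR-34b-5p and miR-449a-5p carried the same seed, which was held by 4 of 1738 mature sequences in the reference table. The other was miR-449c-5p, a paralog that the choice of members left out. Since miR-34c-5p had no sequence there, it could not be counted, and its absence from the 4 says nothing about its seed. Aligned from the 5′ end without gaps, miR-34a-5p and miR-449a-5p had the same base at 15 of 22 positions, and miR-34a-5p and miR-34b-5p at 11 of 22. Such counts are lowered by any inserted base and do not measure likeness outside the seed. These 5p arms all hold the run uuagcug after the seed, at different positions. The 3p arms of miR-34b and miR-34c shared a second seed, found in 2 of 1738 mature sequences, and had the same base at 17 of 22 positions.

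The members come from 3 loci (hairpin positions from the GENCODE M21 annotation of GRCm38, which is the authors' mapping build mm10 under another name). The Mir34a hairpin lies on chromosome 4 at 150068454 to 150068555 on the plus strand; its last 17 bases overlap an exon of Gm37795, an unclassified transcript on the same strand. Mir34b (51103562 to 51103645) and Mir34c (51103034 to 51103110) lie on the minus strand of chromosome 9, 451 bases apart, within an intron of Btg4, which runs on the opposite strand. Mir449a lies on the plus strand of chromosome 13 at 113037534 to 113037624, in an intron of Cdc20b, as do Mir449b and Mir449c.

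In these libraries the family was essentially miR-34a-5p, joined in subcutaneous fat by miR-34c-5p. Values are the authors' normalized log2 abundances. The table has a floor at 3.32 (10 on the linear scale), at which 910 of the 1251 arms stood in all 6 libraries. Read depth is unknown from these values, so a member at the floor is called listed at the floor and no detection limit is given. Both miR-34b arms and miR-449a-5p were listed at the floor in all 6 libraries. So were all 5 relatives outside the chosen members, namely miR-34a-3p, miR-449a-3p, miR-449b, miR-449c-5p and miR-449c-3p.

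MiR-34a-5p stood at 8.48, 8.71 and 8.22 on the log2 scale in the brown libraries 3, 4 and 5, against 8.997, 9.59 and 9.57 in the subcutaneous libraries 1, 3 and 8. Every brown value lay below every subcutaneous one, with SAT_EPA 1 the nearest to brown fat. By rank of abundance within the library it was 130th, 123rd and 139th in brown fat and 116th, 99th and 100th in subcutaneous fat. Between 235 and 273 arms were above the floor in a library. MiR-34a-5p sat near the middle of these in the brown libraries and SAT_EPA 1. It stood higher in SAT_EPA 3 and 8, where the medians of the arms above the floor were 8.29 and 8.62.

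MiR-34c-5p was listed at the floor in BAT_EPA 3 and 4 and stood at 4.91 in BAT_EPA 5, against 7.03, 7.02 and 7.66 in SAT_EPA 1, 3 and 8. The groups did not overlap. The value in BAT_EPA 5 was a low one, shared by 14 miRNAs and only 2 steps above the floor in that library, so brown fat held miR-34c-5p at or just above the limit of the table.

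MiR-34c-3p, the partner arm from the same hairpin, was listed at the floor in all 3 brown libraries and in SAT_EPA 1, and stood at 4.85 in SAT_EPA 3 and 4.95 in SAT_EPA 8. The value in SAT_EPA 8 was the lowest above the floor in that library, shared by 15 miRNAs. The groups overlapped at the floor. Where both arms of miR-34c were above the floor, the 5p arm was the higher.

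**Figure D1:**
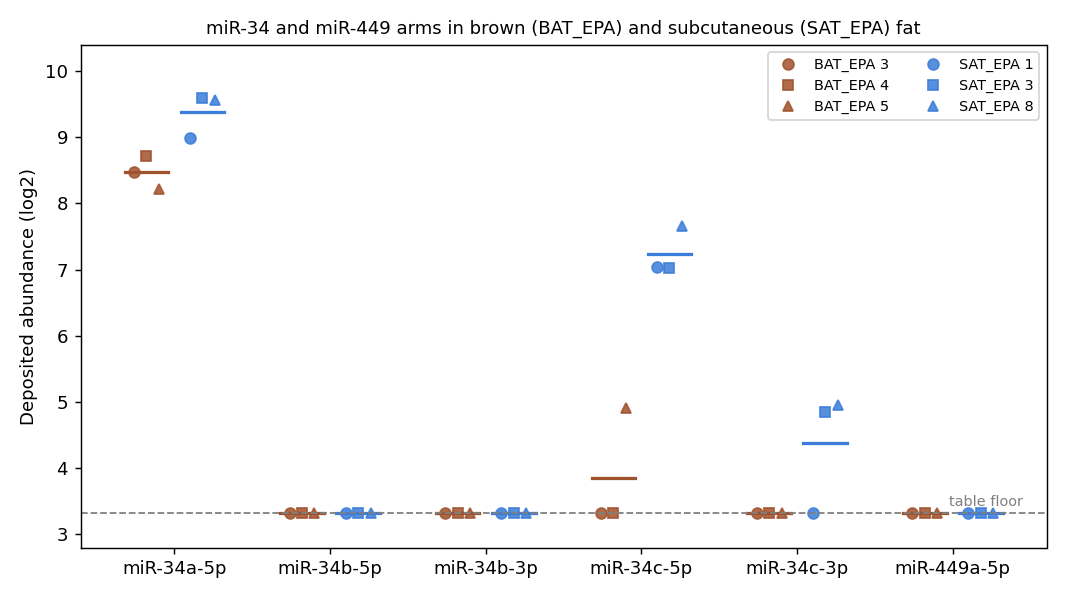
Deposited abundance (log2, vertical axis) of the 6 members, brown libraries at the left of each pair and subcutaneous libraries at the right; each point is 1 library, bars are means, and the dashed line is the table floor at 3.32. MiR-34a-5p is above the floor in all 6 libraries, miR-34c-5p in 4 and miR-34c-3p in 2, and the other 3 members lie on the floor.

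Within subcutaneous fat the order of the levels was clear for the leading members: miR-34a-5p averaged 9.39 ± 0.34, miR-34c-5p 7.24 ± 0.37 and miR-34c-3p 4.38 ± 0.91 (log2 levels, SD, n = 3), and the ranges of these 3 did not overlap. MiR-34c-3p overlapped the members at the floor. Within brown fat only miR-34a-5p, at 8.47 ± 0.25 (SD, n = 3), stood apart from the rest; miR-34c-5p averaged 3.85 ± 0.92 and overlapped the members at the floor.

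The tissue difference was tested with limma on the log2 values of the 269 arms whose linear value above the floor averaged at least 10 parts in 1000000 (ppm) of the mean library total over the 6 libraries, with Benjamini-Hochberg adjustment over all of them. Of the 6 members, 2 passed this filter. MiR-34c-5p passed through its subcutaneous level alone, since its brown level averaged 2.78 ppm, so a difference was built into its passing. Across the table, 35.7% of tested arms were called lower in brown fat (adjusted p under 0.05) and 33.5% higher, and for 40.1% the 3 brown values all lay below the 3 subcutaneous ones. Both tested members were called lower in brown fat, though the miR-34a-5p difference turned to 0.12, not past the threshold, in a setting that corrects for GC content over the hairpin side. With such a background, their direction is not particular to the family.

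For miR-34c-5p the difference, brown minus subcutaneous, was -3.39 ± 0.57 on the log2 scale (SE, n = 3 per tissue, limma adjusted p = 0.0023, 95% interval -4.76 to -2.01). All 3 brown values were below all subcutaneous ones. With 2 brown libraries at the floor, the size is set partly by the floor and depends on how low values are treated: it was -2.68 with 10 and -1.78 with 40 added to the linear values, both past the threshold (limma adjusted p = 0.0015 and 0.0013). It stayed past the threshold without any single library (-3.92 to -3.12), with the tested arms still those chosen over all 6 libraries.

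For miR-34a-5p the difference was -0.92 ± 0.26 (SE, n = 3 per tissue, limma adjusted p = 0.018, 95% interval -1.55 to -0.29), a level 1.89-fold higher in subcutaneous fat. The median difference of all tested arms was -0.45, so that relative to it miR-34a-5p was lower in brown fat by a log2 difference of -0.46. After median-of-ratios scaling, which brought the median of all arms to -0.09, the miR-34a-5p difference was -0.50 and no longer past the threshold (limma adjusted p = 0.114), or -0.41 relative to that median. The call was also lost without BAT_EPA 3, BAT_EPA 5, SAT_EPA 3 or SAT_EPA 8 (limma adjusted p = 0.056, 0.061, 0.054 and 0.064), though the difference kept its sign there.

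Base composition moved with tissue in these libraries and touches the same comparison. Over the 229 tested arms with a mature sequence, the log2 level changed by 0.017 to 0.026 per percentage point of GC in the brown libraries and by -0.122 to -0.091 in the subcutaneous libraries. MiR-34a-5p has a GC content of 50%, close to the mean of 51.6% of those arms. With each library's linear GC trend removed, its difference was -0.71 (limma adjusted p = 0.051), and with a quadratic trend removed -0.74 (0.039). Its direction depended on how GC was measured. Taken over the side of the hairpin that holds the arm (219 tested arms), the GC content of miR-34a-5p was 43.1%, against a mean of 52.1%. With that trend removed, a setting chosen after seeing the data, its difference turned to 0.12 (limma adjusted p = 0.723, 95% interval -0.62 to 0.87). Among these settings miR-34c-5p, without a mature sequence in the table, has a value in the hairpin one alone, where its difference was -1.92 (limma adjusted p = 0.025).

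**Figure D2:**
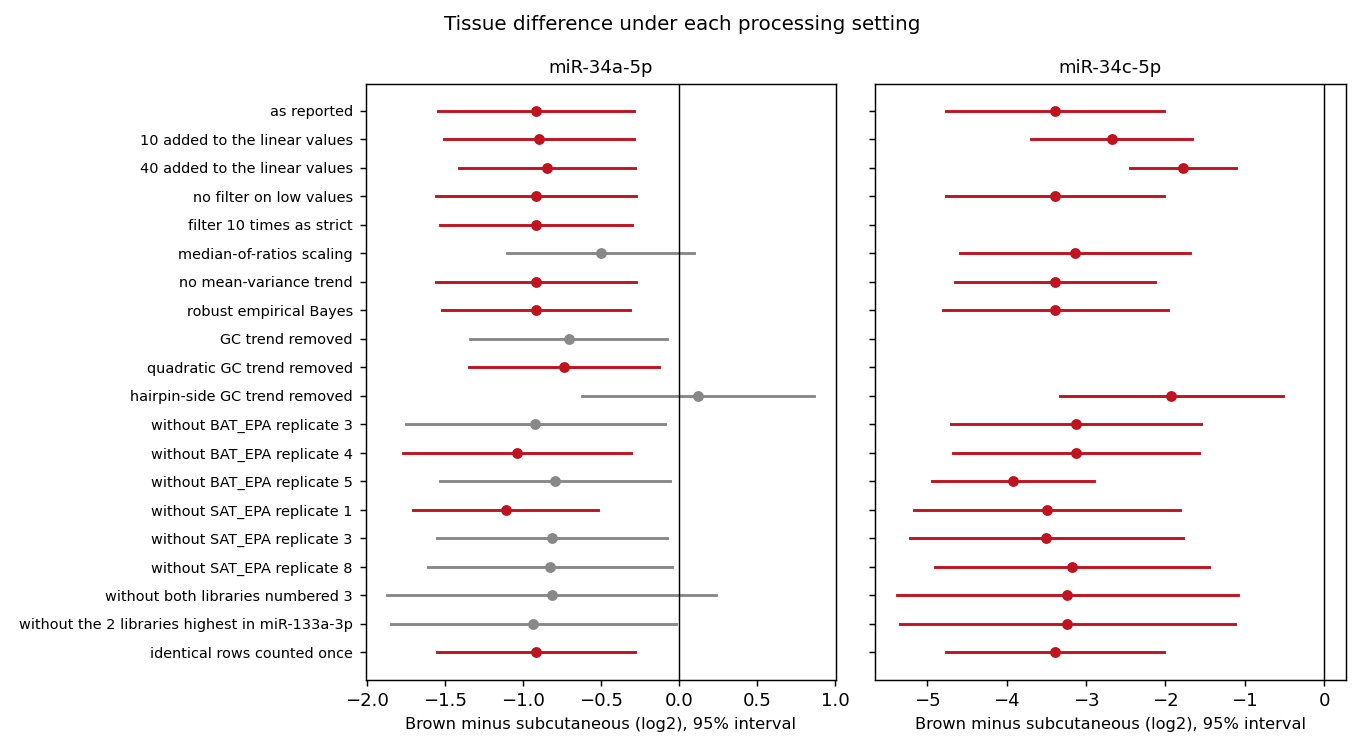
Difference of miR-34a-5p (left) and miR-34c-5p (right), brown minus subcutaneous (log2, horizontal axis), with its 95% interval under each processing setting; red marks an adjusted p under 0.05 and grey a higher one. MiR-34a-5p passes the threshold in 10 of 19 alternatives and lies above 0 with the hairpin-side GC trend removed (0.12). MiR-34c-5p passes in 16 of 16, all below 0, with no value for the other GC settings or the stricter filter. It was among the tested arms through its subcutaneous level alone, so that count gives no separate support.

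**Figure D3:**
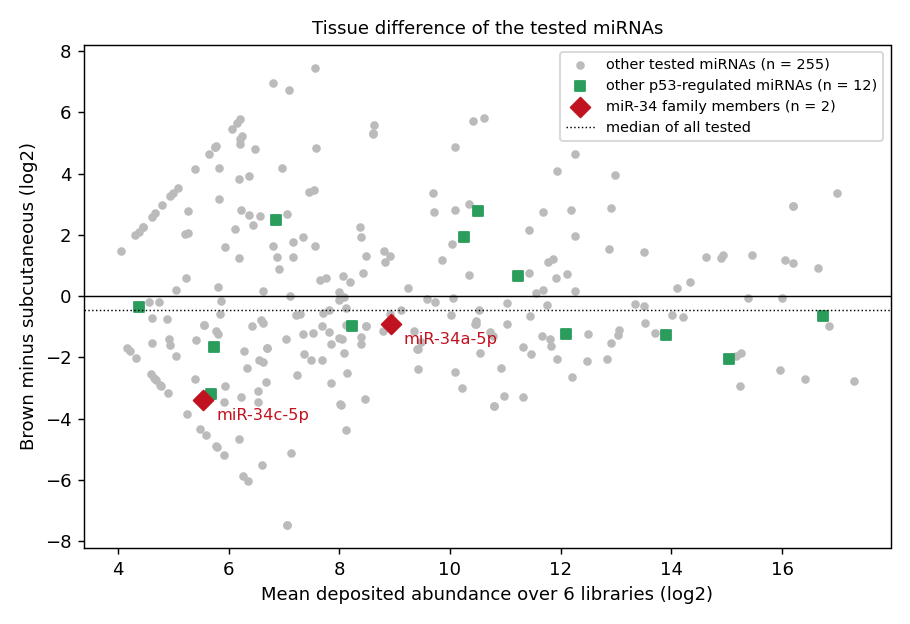
Difference (log2, vertical axis) against the mean level over 6 libraries (log2, horizontal axis) for the 269 tested arms, with the 2 tested family members as red diamonds and 12 other p53-regulated miRNAs as green squares; the dotted line is the median of all tested at -0.45. MiR-34c-5p, at the floor in 2 brown libraries, lies well under that line and miR-34a-5p just under it.

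On the linear scale, the family's summed level was 144, 170 and 128 ppm of the library total above the floor in BAT_EPA 3, 4 and 5, against 259, 375 and 400 ppm in SAT_EPA 1, 3 and 8. The groups did not overlap, and the mean was 147 ± 21.2 in brown and 344 ± 75.3 in subcutaneous fat (SD, n = 3). MiR-34a-5p made up all of the sum in BAT_EPA 3 and 4 and 93.5% in BAT_EPA 5, against 80.5%, 84.6% and 77.8% in SAT_EPA 1, 3 and 8. The log2 level of miR-34a-5p exceeded that of miR-34c-5p by 4.62 ± 1.14 in brown and 2.15 ± 0.37 in subcutaneous fat (SD, n = 3 each), without overlap (exact two-sided permutation p = 0.1, the smallest that 3 against 3 can give). Since miR-34c-5p was at the floor in 2 brown libraries, the brown gap is set there by the floor. MiR-34c-5p also passed the filter through its subcutaneous level alone. The permutation test and the lack of overlap therefore cannot show that the gap differs beyond the difference of miR-34c-5p itself. The ppm levels are shares of the deposited values, not of reads. All are levels in whole tissue, in which fewer cells of a type and less RNA per cell cannot be told apart.

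**Figure D4:**
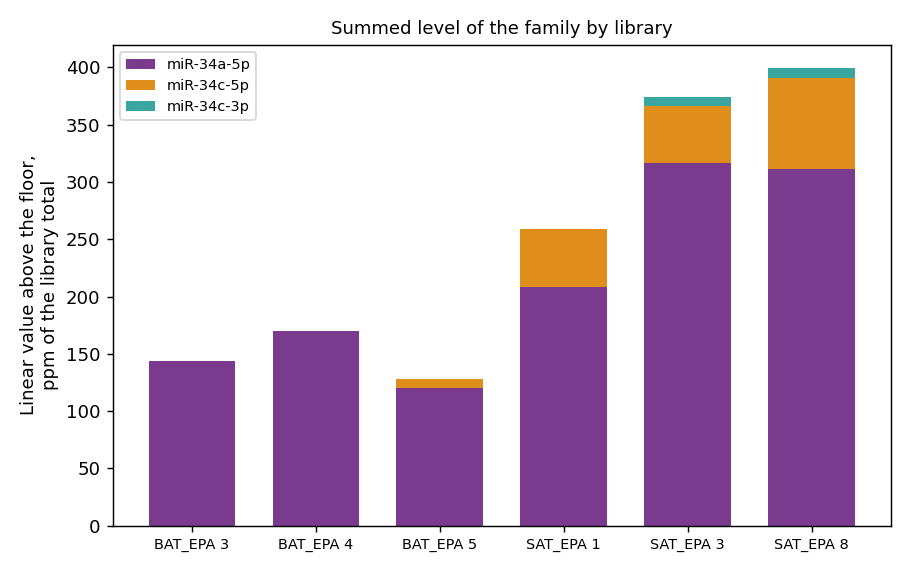
Linear value above the floor, ppm of the library total (vertical axis), summed over the family in each library, brown libraries first. The bars reach 128 to 170 ppm in brown fat and 259 to 400 ppm in subcutaneous fat, where miR-34c-5p adds 49.8 to 80.2 ppm.

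The libraries also differed in miRNAs of other cell types, some of which are known to carry miR-34b, miR-34c and miR-449. Of 7 epithelial miRNAs, SAT_EPA 1 held all 7 above the floor, and their summed level there was 16431 ppm. In the other 2 subcutaneous libraries that sum was 124 and 171 ppm, close to the 111 to 161 ppm of the brown libraries. The sums hide the levels of single arms, though of the 5 tested epithelial arms 0 were called in either direction. Of that list, miR-205-5p was at the floor in all 3 brown libraries. It stood at 15.02, 7.35 and 5.74 in SAT_EPA 1, 3 and 8 (-6.05, not past the threshold, limma adjusted p = 0.054). MiR-205-5p thus passed the filter through its subcutaneous level alone. In the brown libraries miR-203-3p was the highest of the list, at 8.29, 7.80 and 8.56. MiR-34c-5p stood at 7.03 in SAT_EPA 1 and 7.02 in SAT_EPA 3. Of the epithelial list, SAT_EPA 3 had miR-200a-3p, miR-200b-3p, miR-200c-3p, miR-141-3p and miR-429-3p at the floor. There miR-203-3p and miR-205-5p were above it, at 7.28 and 7.35. Without SAT_EPA 1 the miR-34c-5p difference was -3.49 (limma adjusted p = 0.0081), and that of miR-34a-5p was -1.11 (limma adjusted p = 0.011). The part of epithelial cells in the family's difference was not tested.

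The skeletal muscle list summed to 62900 ppm in BAT_EPA 4 and 51173 in SAT_EPA 3, against 526 to 4286 ppm in the other 4 libraries, while miR-1a-3p of that list was at the floor in all 6. BAT_EPA 4 and SAT_EPA 3 were also the libraries highest in miR-34a-5p within their tissue. In subcutaneous fat the lead was slight, at 9.59 in SAT_EPA 3 and 9.57 in SAT_EPA 8, whose muscle sum was 4286 ppm. Without BAT_EPA 4 and SAT_EPA 3, the miR-34a-5p difference was -0.93 (limma adjusted p = 0.070) and that of miR-34c-5p -3.23 (0.027). The part of muscle in the miR-34a-5p levels was not tested further.

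Other lists also moved with tissue, beside 33.5% of all tested arms called higher in brown fat and 35.7% called lower. The summed leukocyte level was 13832 to 18845 ppm in brown and 5770 to 8230 ppm in subcutaneous fat; of its 2 tested arms, miR-150-5p, which made up most of the sum, was higher in brown fat and miR-223-3p lower. With the older names of 2 listed arms added, miR-142-5p was also lower in brown fat (-2.08, limma adjusted p = 0.0041), so 2 of 3 were lower. The endothelial sum was 1341 to 1582 ppm in brown and 4117 to 5236 ppm in subcutaneous fat, with both arms of miR-126 lower in brown fat. MiR-126-5p did not pass the threshold after median-of-ratios scaling, at -0.49 (limma adjusted p = 0.101), nor when either BAT_EPA 3 with SAT_EPA 3 or BAT_EPA 4 with SAT_EPA 3 were left out (0.079 and 0.071). All 4 brown adipocyte miRNAs were higher in brown fat, with sums of 190941 to 196952 ppm there and 16905 to 20805 ppm in subcutaneous fat. The liver miRNA miR-122-5p was above the floor in the 3 brown libraries only, and the 2 neuronal miRNAs were at the floor throughout. The red cell list summed to 87238 to 87347 ppm in brown and 8106 to 15081 ppm in subcutaneous fat, most of it miR-486-5p. Its other tested arm, miR-451a, was lower in brown fat (-1.49, limma adjusted p = 0.0066), and miR-144-3p was at the floor throughout. The part of these cell types in the family's difference was not tested.

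Other miRNAs transcribed or processed under p53 were read beside the family. Of 18 listed arms, 17 were in the table, 3 of these were at the floor in all libraries, and 12 were tested. Of the 12, 3 were higher in brown fat, 4 were lower and 5 were not called, with a median difference of -0.80 beside -0.45 for all tested arms. The list therefore held calls in both directions, at shares near those of the whole table. One of the lower arms, miR-145a-3p, passed the filter mainly through its subcutaneous level. Its 2 members miR-200c-3p and miR-141-3p are also epithelial.

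The lower arms included members of the miR-143 and miR-145 cluster, which is abundant in smooth muscle. MiR-143-3p stood at 13.94, 14.05 and 14.02 in BAT_EPA 3, 4 and 5, against 16.02, 16.02 and 16.18 in SAT_EPA 1, 3 and 8. Its difference was -2.07 ± 0.11 (SE, limma adjusted p = 2.6e-05), without overlap of the groups. MiR-145a-3p was at the floor in BAT_EPA 3 and 5 and at 5.60 in BAT_EPA 4, against 8.34, 6.49 and 7.04 in subcutaneous fat. It passed the filter mainly through its subcutaneous level, so a difference was built into its passing. Its difference of -3.21 ± 0.81 (limma adjusted p = 0.012) was no longer past the threshold without BAT_EPA 3 (0.0521) or BAT_EPA 5 (0.0517). MiR-145a-5p and miR-16-5p, which represses cell cycle genes, were the other 2 lower arms, with differences of -1.26 and -1.25 (limma adjusted p = 0.0089 and 0.0013).

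The higher arms included the co-transcribed pair miR-192-5p and miR-194-5p, best known from liver and gut. MiR-192-5p stood at 12.89, 10.61 and 12.20 in BAT_EPA 3, 4 and 5, against 9.21, 8.86 and 9.33 in subcutaneous fat, a difference of 2.77 ± 0.57 (limma adjusted p = 0.0051), which was 2.14 and not past the threshold without both libraries numbered 3 (0.062). MiR-194-5p stood at 9.08, 7.001 and 8.22 in the brown libraries, against 5.53, 5.76 and 5.53 in the subcutaneous ones, a difference of 2.49 ± 0.55 (limma adjusted p = 0.0065). Both were lowest among brown libraries in BAT_EPA 4, as was miR-122-5p, at 5.60 there against 9.97 in BAT_EPA 3 and 8.997 in BAT_EPA 5. MiR-107-3p, encoded in an intron of the pantothenate kinase gene Pank1, was the third higher arm, with a difference of 1.92 (limma adjusted p = 0.0014).

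The tested arms whose levels varied most like those of miR-34a-5p were found by the root mean square difference of log2 values over the 6 libraries, after the mean of each arm was subtracted. They were miR-615-3p (0.170), miR-181a-5p (0.226), miR-126-5p (0.234), miR-28a-5p and miR-28c (0.247 each; these last 2 have identical values in the table). The closest, miR-615-3p, stood at 9.76, 9.97 and 9.39 in BAT_EPA 3, 4 and 5, against 9.80, 10.61 and 10.54 in SAT_EPA 1, 3 and 8. Like miR-34a-5p it was highest in library 4 and lowest in library 5 within brown fat, and lowest in SAT_EPA 1 within subcutaneous fat. Its tissue difference of -0.61 missed the threshold (limma adjusted p = 0.100), and was -0.87 without SAT_EPA 1 (limma adjusted p = 0.021). With the linear GC trend of the mature sequences removed it was -2.18 (limma adjusted p = 0.00032), beside -0.71 for miR-34a-5p. The call of miR-28a-5p was lost in that setting (-0.19, limma adjusted p = 0.485).

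For miR-34c-5p the closest arms were miR-193a-3p (0.480), miR-26b-5p (0.546), miR-10b-5p (0.554), miR-29b-3p (0.600) and miR-195a-5p (0.601). All 5 were lower in brown fat, with differences of -3.56 to -2.93. With the linear GC trend of the mature sequences removed, miR-29b-3p was at -0.74 and no longer past the threshold (limma adjusted p = 0.235), and miR-26b-5p was at -0.87 (0.0021); with the hairpin-side trend removed they were at -1.07 (0.113) and -3.28 (1.7e-05). Among them miR-29b-3p was most like miR-34c-5p in level as well, being at the floor in all 3 brown libraries and at 6.34, 5.76 and 6.66 in SAT_EPA 1, 3 and 8. It therefore passed the filter through its subcutaneous level alone. All these libraries share their tissue contrast and normalization, so likeness over 6 libraries mostly restates the size of the tissue difference. By Pearson's r over the same 6 libraries, 1 of the 5 arms nearest to miR-34a-5p and 0 of the 5 nearest to miR-34c-5p were among those 5.

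**Figure D5:**
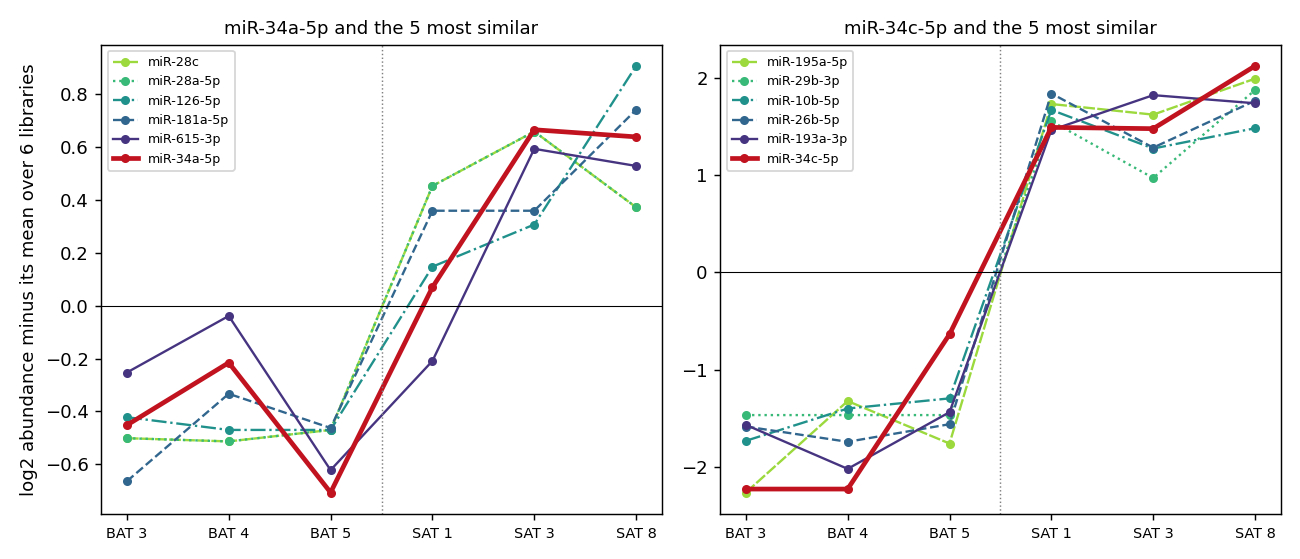
Log2 level minus its mean over 6 libraries (vertical axis) in each library (horizontal axis, brown left of the dotted line) for miR-34a-5p (left panel) and miR-34c-5p (right panel), in red, with the 5 tested arms most like each; lines only join the values of an arm. MiR-28a-5p and miR-28c coincide, and miR-34c-5p departs most from its companions in BAT_EPA 5, where it was above the floor.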

How the data were processed

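The authors deposited normalized log2 abundances in 1 table. According to the series' design text, about 13.8 M reads per sample were mapped to mm10, the count of every unique read was scaled by the library's usable reads, and 40 counts were added. The aligner, the miRNA annotation and any trimming were not given in the sources used. The table floor is 10 on the linear scale, which differs from the 40 added counts. In all 3 brown libraries miR-378a-3p stood at 18.67, the table maximum, and miR-486-5p at 17.68 (SD 0). The near-equal distributions of the libraries leave no depth in the values, so no counting interval is given. Linear and ppm levels therefore depend on an arm's place within its library and cannot be read as shares of reads.

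The tissues were compared with limma 3.58.1 (R 4.3.3, mean-variance trend) on the log2 values as deposited, brown minus subcutaneous, for the 269 arms averaging at least 24.0 linear units above the floor. The test was checked on simulated data with normal noise and no floor, so that check does not cover arms near the floor. Levels in ppm are linear values above the floor over the library's sum. Python 3.11.15, numpy 2.4.6, pandas 2.3.3, scipy 1.17.1 and matplotlib 3.10.9 were used for the rest.

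The members and lists were chosen with earlier results of these data known. Named besides all members and relatives were the 4 p53-list arms with the largest differences, the 5 arms most like each tested member, and the most abundant tested arm of each cell type list; further arms were chosen after their values were seen. Alternatives were other pseudocounts, filters, scaling, variance models, a linear GC trend removed, another measure of likeness, locus-numbered arms added to lists, and leaving out libraries. Added after seeing the data were a quadratic GC trend, a GC trend over the hairpin side that holds the arm (matched by name for 81.4% of tested arms, against 85.1% with a mature sequence), leaving out BAT_EPA 4 and SAT_EPA 3 (highest in the muscle miR-133a-3p), counting identical rows once, and older names for 2 leukocyte arms.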

Additional observations from a re-analysis of the deposited data

How the results depend on the processing

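The miR-34a-5p difference (-0.92) was past the threshold in 10 of 19 alternatives, and turned to 0.12 with the hairpin-side GC trend removed. It was not past it with median-of-ratios scaling (-0.50), the linear GC trend removed (-0.71), without both libraries numbered 3 (-0.82) or without both muscle-rich libraries, BAT_EPA 4 and SAT_EPA 3 (-0.93); without single libraries it ran from -1.11 to -0.79. The miR-34c-5p difference was past the threshold in all 16 alternatives that gave a value (limma adjusted p 0.0013 to 0.031). That arm passed the filter through its subcutaneous level alone, so this count gives no separate support for the difference. With a filter 10 times as strict, 58 instead of 90 arms were higher in brown fat, of 157 tested instead of 269. With the linear or quadratic GC trend of mature sequences removed, 0 instead of 4 other p53-regulated arms were lower (3 of the 4 had no sequence there), and 1 with the hairpin-side trend removed (miR-22-3p, not among the 4, of which 3 had no value). Of 362 values of the 21 other named arms, 338 kept direction and side of the threshold. The sign turned for 2 uncalled arms: miR-203-3p (-1.15) to 0.25 and 0.28 with the linear and quadratic GC trend removed and -2.19 to 0.30 without single libraries (0.30 without SAT_EPA 1), and miR-133a-3p (-0.31) to 0.11 with median-of-ratios scaling, 2.82 without both numbered 3 and -2.24 to 1.31 without single libraries (positive without BAT_EPA 3, BAT_EPA 5 or SAT_EPA 3). Except where stated, the cause was not tested. No paired analysis was possible because the tissues share only the number 3. With 3 libraries per tissue and no depth in the values, differences of arms near the floor are imprecise in size.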
